A study of Mus musculus with 6 samples.

Results

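The genes described here encode Complex I and the other respiratory chain complexes that feed oxidative phosphorylation. They are the protein-coding mouse genes whose symbol starts with Nduf, Uqcr or Cox followed by 4, 5, 6, 7 or 8, together with Sdha, Sdhb, Sdhc and Sdhd. This rule found 79 of the 21887 protein-coding genes on chromosomes 1 to 19, X and Y of the RefSeq annotation of GRCm38.p6, the assembly behind mm10. By role they were 7 core subunits of Complex I, 34 accessory subunits, 8 assembly factors, 4 subunits of Complex II, 8 of Complex III and 18 of Complex IV. Open chromatin at these genes was mapped with ATAC-seq, an assay that lets the enzyme Tn5 cut and tag accessible DNA. The cells were regulatory T cells (Tregs), sorted as CD4+CD25+GITR+ and labelled Foxp3+, from lymph nodes draining a B16.F10 melanoma on day 14 after 300000 of these mouse melanoma cells were injected under the skin. The 3 wild-type (WT) libraries came from C57BL6 mice and the 3 knockout (KO) libraries from il33-/- mice on that background, which lack the cytokine interleukin-33 in all their cells. Mice of both genotypes carried the tumour. The labels give neither the age and sex of the mice nor whether a library was 1 mouse or a pool, so p-values reflect only how these libraries varied, and that variation may be technical. Replicate numbers are those of the titles: WT replicates 2, 4 and 6, KO replicates 1, 2 and 4.

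The respiratory chain sits in the inner mitochondrial membrane. Complexes I and II pass electrons from NADH and succinate to ubiquinone, Complex III hands them to cytochrome c, and Complex IV passes them to oxygen, while I, III and IV pump the protons that drive ATP synthase. Most subunits are encoded in the nucleus and a few, not covered here, in mitochondrial DNA. Tregs are known to rely on this chain more than other activated CD4 T cells do, and Complex III is needed for their suppressive function. Nuclear respiratory genes are known targets of the transcription factors NRF1, GABPA (an ETS family factor), YY1 and the ERR receptors, and several subunits exist as tissue-specific isoforms.

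Each library was deposited as its own list of peaks. The height of a peak is its pileup, the number of extended tags covering its summit, and it was divided by the median height of all peaks in the same list (the scaled height). A gene had a peak when one overlapped it or 1 kb on either side, and the tallest such peak stood for the gene. The lists held 52836 to 55939 peaks from 12.9 to 15.2 M (mega) tags in WT and 37266 to 42738 peaks from 4.72 to 10.3 M tags in KO, so every KO library was shallower and depth and genotype cannot be told apart. Raw heights were therefore lower in KO throughout. The WT lists held 8 or 9 peaks on chromosome Y and the KO lists 0. Whatever this reflects, such as the sex of the mice, cannot be told apart from genotype either. A peak pools all sorted cells, so openness in fewer cells and less openness per cell cannot be told apart. Of 7 Treg and CD4 T cell markers, 7 had a peak in 5 libraries and 6 in KO replicate 4, where Tnfrsf18, the gene of GITR, had none. Markers of other cells were partly open: 2 or 3 of 5 for B cells, 2 to 4 of 5 for CD8 T and NK cells, 3 of 5 for myeloid cells and 3 of 6 for melanoma cells. Among the listed genes without a peak in any library were Ms4a1, Ncr1, Lyz2, Csf1r, Tyr, Dct and Sox10. Others of the same lists had a peak in some or all libraries, among them Cd79a, Pax5, Ebf1, Cd8a, Cd8b1, Spi1, Mlana, Pmel and Mitf. The summed scaled height of the Treg and CD4 T cell list was 19.6 to 22.2 in WT and 15.3 to 19.4 in KO. That of the B cell list was 4.97 to 5.22 in WT and 2.19 to 4.04 in KO, that of the CD8 T and NK list 3.11 to 3.17 and 1.38 to 2.78, that of the myeloid list 4.28 to 5.37 and 2.88 to 3.65, and that of the melanoma list 8.48 to 9.60 in KO and 9.25 to 10.4 in WT. Their part in the results was not tested.

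The sequences around 7 start sites are shown as examples of open and closed members. Each stretch runs from 200 bases before to 29 bases after the RefSeq start site on GRCm38.p6, 5′ to 3′ on the strand of the gene, and capitals mark the letters of an NRF1, ETS or YY1 motif. Cox8a (chr19:7217587-7217816, minus strand) and Ndufb4 (chr16:37654339-37654568, minus) had a peak in all 6 libraries. They are followed by their closed relatives, the muscle isoform Cox8b (chr7:140900417-140900646, minus) and the gene copy Ndufb4b (chr19:25032908-25033137, plus), neither of which had a peak in any library. Sdha (chr13:74350211-74350440, minus) and Cox6a1 (chr5:115348929-115349158, minus) show repeated NRF1 letters. Ndufaf8 (chr11:120098734-120098963, plus) was the second tallest member and shows ETS and YY1 letters together.
Cox8a: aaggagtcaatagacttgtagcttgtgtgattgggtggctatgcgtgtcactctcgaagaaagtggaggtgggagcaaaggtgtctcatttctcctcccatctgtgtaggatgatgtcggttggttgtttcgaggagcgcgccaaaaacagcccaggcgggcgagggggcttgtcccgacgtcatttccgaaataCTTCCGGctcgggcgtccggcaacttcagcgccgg
Cox8b: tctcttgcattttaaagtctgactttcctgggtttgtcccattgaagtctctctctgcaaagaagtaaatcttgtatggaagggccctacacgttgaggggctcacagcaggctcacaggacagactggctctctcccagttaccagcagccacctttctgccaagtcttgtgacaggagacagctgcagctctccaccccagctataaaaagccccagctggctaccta
Ndufb4: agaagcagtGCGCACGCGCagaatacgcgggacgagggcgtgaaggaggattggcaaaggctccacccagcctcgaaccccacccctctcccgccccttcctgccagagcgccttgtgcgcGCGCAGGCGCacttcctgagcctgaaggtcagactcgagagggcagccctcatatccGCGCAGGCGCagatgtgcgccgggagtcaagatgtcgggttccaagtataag
Ndufb4b: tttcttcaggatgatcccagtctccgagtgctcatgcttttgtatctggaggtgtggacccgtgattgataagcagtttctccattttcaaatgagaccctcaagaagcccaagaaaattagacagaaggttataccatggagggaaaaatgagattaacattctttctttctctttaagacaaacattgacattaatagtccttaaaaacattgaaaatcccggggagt
Sdha: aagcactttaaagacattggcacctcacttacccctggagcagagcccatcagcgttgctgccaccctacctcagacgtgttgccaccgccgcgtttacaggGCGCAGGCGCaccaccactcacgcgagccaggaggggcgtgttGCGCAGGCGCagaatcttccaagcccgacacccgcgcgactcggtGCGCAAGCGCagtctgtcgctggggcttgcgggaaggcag
Cox6a1: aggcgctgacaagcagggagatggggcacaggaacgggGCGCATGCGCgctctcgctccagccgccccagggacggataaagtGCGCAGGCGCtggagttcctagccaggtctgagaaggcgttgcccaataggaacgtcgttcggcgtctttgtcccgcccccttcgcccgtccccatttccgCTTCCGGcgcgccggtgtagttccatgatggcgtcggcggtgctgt
Ndufaf8: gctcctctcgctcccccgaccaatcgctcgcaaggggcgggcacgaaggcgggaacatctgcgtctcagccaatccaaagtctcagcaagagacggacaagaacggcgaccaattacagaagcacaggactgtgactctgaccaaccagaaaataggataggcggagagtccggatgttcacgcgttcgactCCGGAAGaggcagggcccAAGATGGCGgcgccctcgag

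Sdha and Ndufb4 each held 3 copies of the NRF1 letters and Cox6a1 held 2. The stretches of Cox8b and Ndufb4b held none of the 3 motifs, and the Cox8b stretch has TATAAA near its end. Motifs were searched as exact letters on both strands in RefSeq windows from 250 bases before to 50 after each start site, with overlaps between motifs allowed. Of 79 members, 63 had a window, and 61 windows belonged to members with a peak in all 6 libraries. The NRF1 letters (GCGCA, any base, GCGC) stood in 14 of these 61 windows (23.0%), against 9.47% of 13390 windows of all genes with a peak in all 6 libraries and 6.38% of all 21263 windows. The YY1 letters AAGATGGCG stood in 6 windows (9.84%), against 2.78% and 1.83%. Those 6 belonged to Ndufa9, Ndufaf8, Ndufc1, Ndufs4, Ndufs6 and Ndufs7. The ETS letters CCGGAAG stood in 13 windows (21.3%), against 16.7% and 11.6%, a smaller gap. The ERR letters AAGGTCA and the CRE letters TGACGTCA each stood in 4 windows (6.56%), against 3.29% and 3.0% of windows of all open genes. The SP letters GGGCGG went the other way, in 47.5% of member windows and 60.7% of windows of open genes. The TATA letters TATAAA stood in 8.20% and 7.31%. Windows, not genes, were counted throughout. The 2 overlapping windows of Ndufa5 hold the same NRF1 and SP sites, and the 2 of Ndufa7 hold the same TATAAA site.

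**Figure D1:**
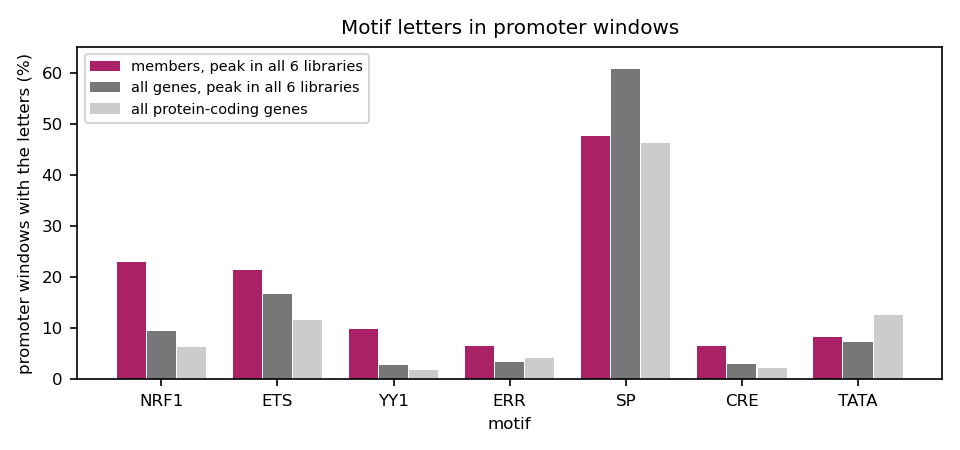
Share of promoter windows, in percent, that hold the letters of each motif, for 61 windows of members with a peak in all 6 libraries, 13390 windows of all genes with such a peak and all 21263 protein-coding windows. The member bar is the tallest of the 3 for NRF1, ETS, YY1, ERR and CRE, and lies below that of open genes for SP.

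At least 1 of the NRF1, ETS and YY1 motifs stood in 29 of 61 member windows (47.5%), against 26.1% of windows of open genes. The 4 windows of members without a peak in all 6 libraries (Cox7b, Cox7b2, Cox8b and Ndufb4b) held none of the 3. Their CpG content was also lower. The ratio of observed to chance CpG had a median of 0.383 in these 4 windows, 0.842 in the 61 windows of open members and 0.737 in windows of all open genes. Among open members, the motifs did not go with height. The median scaled height was 3.22 for 28 genes with any of the 3 motifs and 3.23 for 31 genes with none. A match is a description of the letters and shows no binding.

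Nearly all respiratory chain genes were open, in both genotypes. A peak was called in all 6 libraries at 71 of 79 members (89.9%), against 59.4% of all protein-coding genes (percent called). No peak was called in any library at 6 members, against 31.7% of all genes. Members with a peak numbered 73, 72 and 73 in WT replicates 2, 4 and 6 and 73, 72 and 73 in KO replicates 1, 2 and 4 (mean 72.7 ± 0.577, SD, n = 3 in each genotype). The counts of members were thus the same in both genotypes, whereas the share of all genes with a peak was 66.0% to 66.8% in WT and 61.4% to 62.9% in KO. Exactly 1 peak in every library was found at 43 members.

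The 6 closed members were isoforms or copies of an open gene. Cox6a2 and Cox8b are the heart and skeletal muscle isoforms of Complex IV subunits, Cox7b2 and Cox8c are testis isoforms, and Ndufb4b and Ndufb4c are copies of Ndufb4. The partners Cox8a, Cox6a1 and Ndufb4 each had a peak in all 6 libraries. Cox8a had scaled heights of 3.89, 3.70 and 4.31 in WT and 3.85, 3.38 and 3.17 in KO, and the genotypes overlapped. Cox6a1 had 3.14, 3.74 and 3.31 in WT and 3.55, 3.06 and 2.74 in KO, again with overlap. Ndufb4 had 3.29, 2.70 and 3.07 in WT and 3.0, 2.94 and 2.96 in KO, and its KO values lay within the WT range.

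Another 3 tissue isoforms of Complex IV were not closed. Cox7a1, the heart and muscle partner of Cox7a2, had scaled heights of 1.96, 1.56 and 1.93 in WT and 1.5, 1.19 and 1.17 in KO. Cox7a2 had 3.36, 3.93 and 3.66 in WT and 3.1, 3.06 and 3.0 in KO, above Cox7a1 in each of the 6 libraries. Cox6b2, the testis partner of Cox6b1, had 1.32, 1.22 and 1.10 in WT and 1.0, 0.75 and 1.09 in KO, and its peak lay within 1 kb of Fam71e2. Cox6b1 had 2.57, 2.82 and 2.76 in WT and 3.1, 2.31 and 2.04 in KO. Cox4i2, the lung and hypoxia isoform of Cox4i1, had the weakest peak of any member, at 0.46 and 0.45 in WT replicates 2 and 6, no peak in WT replicate 4, and 0.60, 0.44 and 0.35 in KO. Its raw heights were 7 to 13 tags, below the median peak of every list. Cox4i1 had 2.75, 2.96 and 2.72 in WT and 2.70, 2.63 and 2.00 in KO. Scaled heights are summit coverage, but a longer gene gives a longer window in which the tallest peak is sought.

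Ndufa4l2, a hypoxia-induced relative of the Complex IV subunit Ndufa4, had a peak in all 6 libraries (both are counted with Complex I here, by their symbols). Its tallest peak was at least as tall as that of Ndufa4 in each of the 6 libraries, at 2.93, 3.85 and 3.24 in WT and 2.90, 2.5 and 2.70 in KO, against 2.75, 2.74 and 2.83 and 2.40, 2.5 and 2.61. Ranked by significance within its list, though, the Ndufa4l2 peak lay at percentiles 75.6 to 89.5 and that of Ndufa4 at 84.1 to 90.6, and Ndufa4l2 was above Ndufa4 only in WT replicate 4. Ndufa4l2 also held 3 to 5 peaks per library, 24 in all, which only Ndufaf2 exceeded with 28. Ndufaf2, an assembly factor, had 5, 8 and 5 peaks in WT and 3, 2 and 5 in KO, the most in any library in WT replicate 4. Ndufa13, Sdhb and Cox7a2 followed with 13 peaks each over the 6 libraries.

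**Figure D2:**
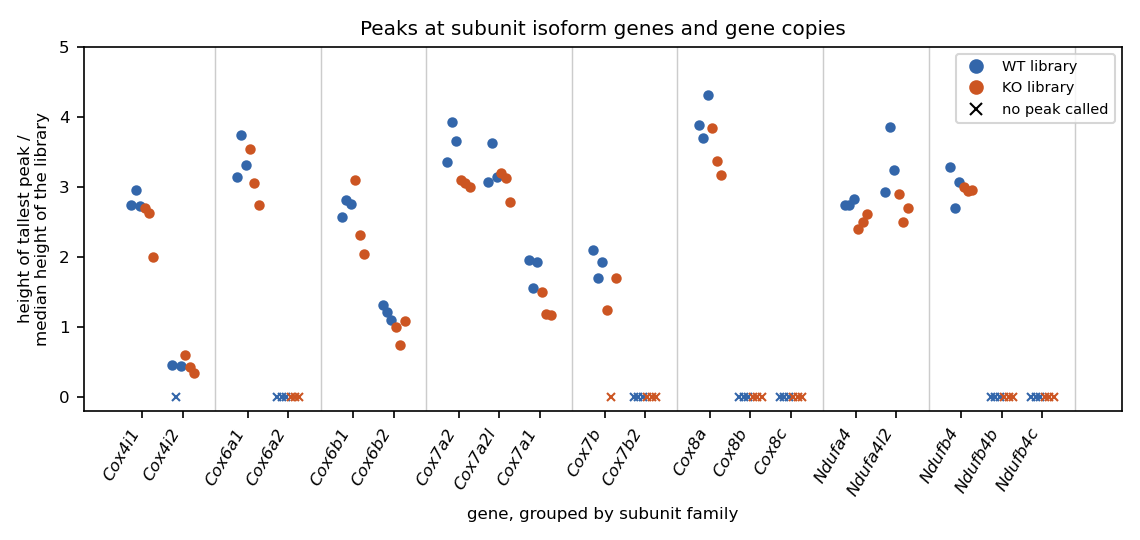
Scaled height of the tallest peak (vertical axis, in multiples of the median height of the list) at isoform genes and gene copies, 1 point per library, with crosses at 0 for libraries without a peak. The common isoforms Cox8a, Cox6a1 and Ndufb4 lie between 2.70 and 4.31, while Cox6a2, Cox7b2, Cox8b, Cox8c, Ndufb4b and Ndufb4c have crosses in all 6 libraries.

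Peaks at the members sat on their promoters. For the 59 members with a listed start site and a peak in all 6 libraries, the median distance from the summit to the start was 42 to 48 bp per library, against 90 to 106 bp over all 10497 such genes. The summit lay within 200 bp of the start at 50 of 59 members (84.7%) in each library, against 60.9% to 62.6% of all genes. The summits lay mostly upstream, with a median of 29 to 45 bp before the start. The tallest peak lay over 1 kb from the start at Ndufb6, near Topors and Smim27, and, in the WT libraries, at Ndufv2, near Ankrd12. Both also had a peak at their own start in all 6 libraries, at chr4:40278923-40279996 for Ndufb6 and chr17:66100788-66102374 for Ndufv2. The summit lay within 1 kb at 57 of 59 members in each WT library and KO replicate 1, and at 58 in KO replicates 2 and 4. At Ndufa13 the tallest peak in KO replicate 1 was at chr8:69902498-69903574 (74 tags). In the other libraries it was at chr8:69901315-69902286, so Ndufa13 was also compared at different regions.

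**Figure D3:**
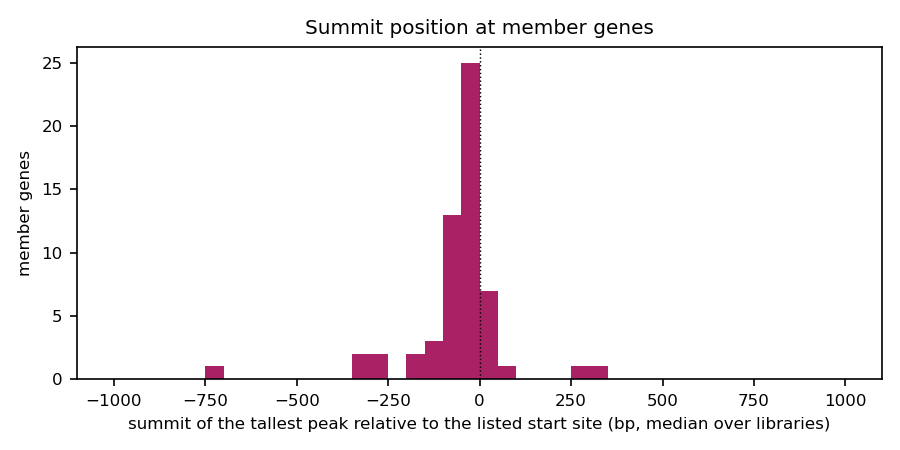
Number of member genes (vertical axis) by the distance of the tallest summit from the listed start site in bp, as the median over libraries in bins of 50 bp. Of 58 genes drawn, 46 lie within 100 bp of the start, and the 2 not drawn are Ndufb6 and Ndufv2.

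Several of these peaks lay between a pair of genes. A start site of another gene on the opposite strand within 1 kb was found at 17 of the 59 members (28.8%), against 13.6% of all genes with a peak in all 6 libraries. Pairs included Sdhd with Timm8b, which encodes a mitochondrial import chaperone, Ndufb5 with Mrpl47, which encodes a mitochondrial ribosomal protein, and Ndufa7 with Rps28, which encodes a cytosolic ribosomal protein. Sdha was paired with Ccdc127 and Ndufaf2 with Ercc8, a DNA repair gene. At 35 of 71 members the tallest peak lay within 1 kb of another protein-coding gene, so its height cannot be assigned to the member alone. No 2 members shared their tallest peak.

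Member peaks were among the strong peaks of each list. Ranked by significance within its list, with 100 the strongest, the tallest peak of the 71 members had a median percentile of 94.2, 94.3 and 93.9 in WT and 92.0, 91.4 and 92.3 in KO, against 88.5 to 89.3 and 83.4 to 85.4 for all genes tested. The median scaled height of the 71 was 3.36, 3.63 and 3.34 in WT and 3.0, 2.94 and 2.91 in KO. Over the 13004 genes with a peak in all 6 libraries it was 2.93, 3.15 and 3.0 in WT and 2.55, 2.38 and 2.39 in KO. Members lay above the median gene in each library, and both medians were lower in KO. Among the tallest members, by mean over the 6 libraries, were Ndufa2 (4.86), Ndufaf8 (4.79), Ndufs8 (4.65) and Ndufb5 (4.48). The lowest were Cox6b2 (1.08), Cox6c (1.38), Ndufa1 (1.38), Cox7a1 (1.55) and Ndufc2 (1.80), with a median of 3.23 over the 71.

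**Figure D4:**
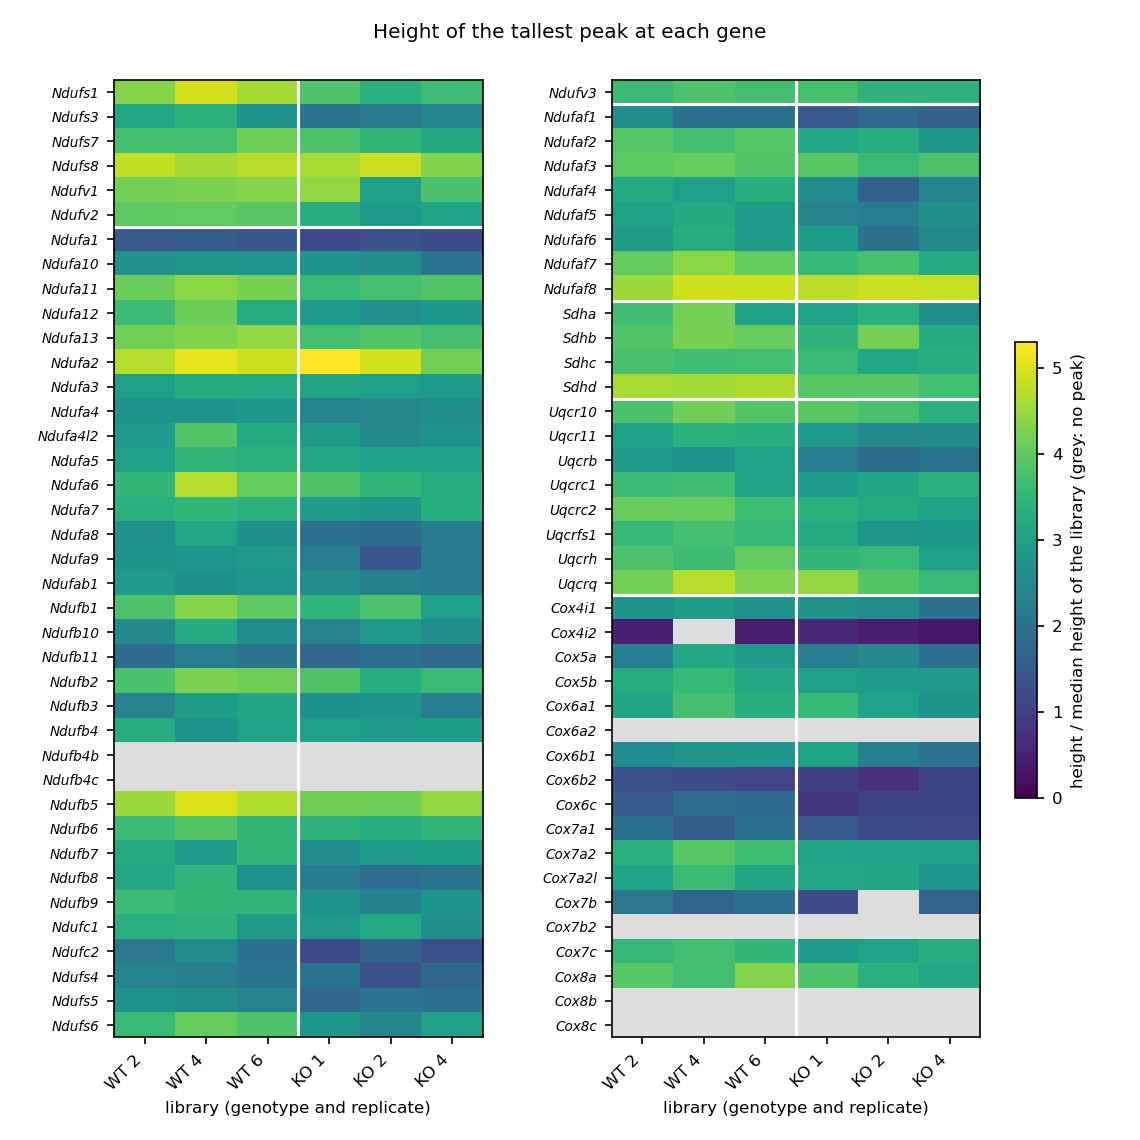
Scaled height of the tallest peak (colour, in multiples of the median height of the list) at 78 members, 1 column per library, with white lines between the complexes and between WT and KO and grey where no peak was called. Rows run from Complex I core, accessory and assembly genes to Complexes II, III and IV, and most rows are darker on the KO side.

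The comparison of the genotypes asked how these promoters differed in Tregs from mice without Il33. Scaled heights were lower in KO at 31 of 71 members (43.7%) and higher at none, by limma with Benjamini-Hochberg adjustment over all 13004 genes. Among all genes 47.0% were lower and 0.0154% higher, so the share of lower members was near the background. At an unadjusted p under 0.05, 34 of 71 members were lower and 0 higher, against 7449 and 5 of all 13004 genes. The median difference (KO minus WT, log2) was -0.21 for members and -0.28 for all genes, and 70 of 71 members had a negative difference. The upper quartile of all genes was also negative, at -0.16. Every KO library lay below every WT library at 42 members (59.2%), against 55.3% of all genes, and above at 0, against 0.108%. Leaving out WT replicate 4 gave 15 lower members (18.6% of all genes were lower in that fit), leaving out KO replicate 4 gave 16 (34.4% of all genes) and leaving out WT replicate 6 gave 20 (31.5% of all genes). Of the 31, 12 passed in each of the 6 fits without 1 library: Ndufs1, Ndufs3, Ndufv2, Ndufa8, Ndufa9, Ndufb8, Ndufb9, Ndufc2, Ndufs6, Ndufaf4, Uqcrb and Cox6c. At Ndufv2 the WT and KO peaks compared lay at different regions. When each library was instead centred on the median of all genes tested, 0 members were lower (0.977% of all genes) and 3 higher (4.23%, against 5.42% of all genes), with a member median of 0.10 and a median of 0.03 for all genes.

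**Figure D5:**
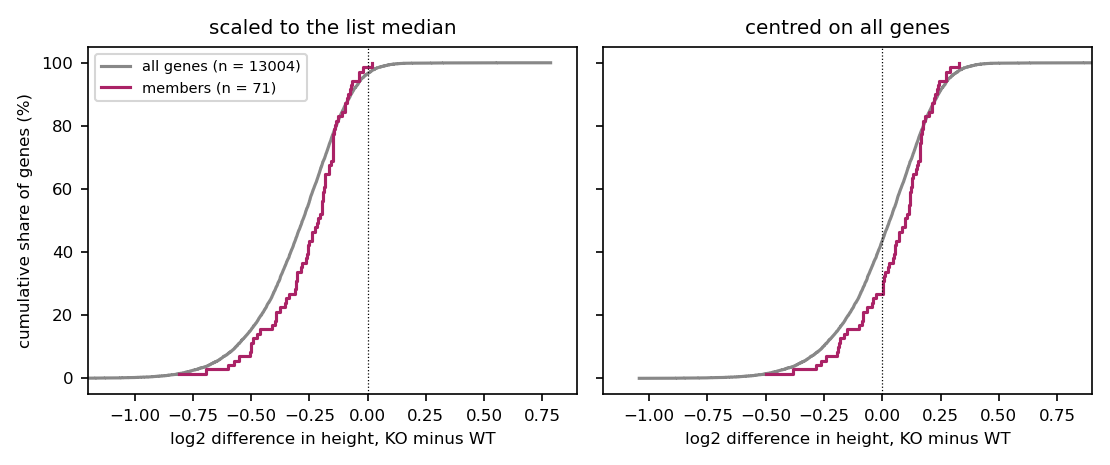
Cumulative share of genes, in percent, by the log2 difference in height (KO minus WT) for 71 members and 13004 genes, with heights scaled to the median of the list (left) and centred on all genes (right). The median of members moves from -0.21 to 0.10 between the panels and that of all genes from -0.28 to 0.03, and the members lie to the right of all genes over most of the range.

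The core subunits of Complex I carry its electron path, and Ndufs1, Ndufs3 and Ndufv2 were lower in KO, Ndufv2 by peaks at different regions. Ndufs1, the largest iron-sulfur subunit (chromosome 1, 63143592 to 63176822), had scaled heights of 4.32, 4.96 and 4.59 in WT and 3.85, 3.38 and 3.65 in KO. Its genotypes did not overlap, with a log2 difference of -0.35 (SE 0.0922, adjusted p = 0.00417). Ndufs3, a core subunit of the hydrophilic arm, had 3.18, 3.41 and 2.72 in WT and 2.05, 2.13 and 2.39 in KO, without overlap, a difference of -0.50 (adjusted p = 0.00212). Ndufv2, an iron-sulfur subunit beside the NADH site, had 3.96, 4.00 and 3.93 in WT and 3.35, 2.88 and 3.09 in KO (log2 difference -0.36, adjusted p = 0.00522). Its tallest peak lay near Ankrd12 in WT and at its own start in KO, so the difference compares different regions. Raw heights, which depend on depth, were 84, 100 and 103 tags at the start in WT and 67, 46 and 71 in KO. Near Ankrd12 they were 111, 108 and 114 in WT and 57, 58 and 75 in KO. In KO replicates 2 and 4 that peak was the taller but fell outside the 1 kb window. With peaks counted only within the gene, without the flank, the difference at Ndufv2 was -0.14 and did not pass (adjusted p = 0.262). Ndufv1, which binds NADH, and Ndufs7 and Ndufs8, which hold the last iron-sulfur clusters, did not pass the test. Ndufv1 had 4.18, 4.26 and 4.34 in WT and 4.45, 3.0 and 3.78 in KO, where replicate 2 was low. Ndufs7 had 3.71, 3.70 and 4.14 in WT and 3.80, 3.50 and 3.22 in KO. Ndufs8 had 4.82, 4.59 and 4.72 in WT and 4.60, 4.88 and 4.30 in KO, and both overlapped.

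Among the accessory subunits of Complex I, 32 of 34 had a peak in all 6 libraries. Of these 32, 11 were lower in KO, beside 47.0% of all genes tested. Ndufb8, a subunit of the membrane arm (chromosome 19, 44548571 to 44555442), had the lowest p of any member. Its scaled heights were 3.18, 3.48 and 2.72 in WT and 2.20, 1.94 and 2.04 in KO, without overlap, and the log2 difference was -0.60 (SE 0.12, adjusted p = 0.000726). Ndufc2, also of the membrane arm, had 2.11, 2.56 and 2.00 in WT and 1.2, 1.63 and 1.30 in KO, a difference of -0.69 (adjusted p = 0.00135). Ndufb9 had 3.64, 3.52 and 3.48 in WT and 2.70, 2.31 and 2.74 in KO, a difference of -0.46 (adjusted p = 0.00174). Ndufs6, a zinc-binding subunit of the matrix arm, had 3.57, 4.07 and 3.83 in WT and 2.80, 2.44 and 3.04 in KO, a difference of -0.47 (adjusted p = 0.0013). All 4 genes separated the genotypes in every library. Ndufa2, a subunit of the matrix arm and the tallest member, did not: it had 4.71, 5.11 and 4.90 in WT and 5.3, 4.94 and 4.17 in KO, where KO replicate 1 held the highest value of any member in any library. Ndufa4l2 was lower (log2 difference -0.30, adjusted p = 0.0268), although WT replicate 2 and KO replicate 1 were nearly level, and it passed in only 2 of the 6 fits without 1 library (not without KO replicate 2 or 4, or WT replicate 4 or 6). Ndufa4 did not pass (-0.15, adjusted p = 0.252), and the difference between these genes was not tested.

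All 8 assembly factors of Complex I had a peak in all 6 libraries. Of these, 6 were lower in KO, with a median log2 difference of -0.31 (47.0% and -0.28 for all genes). Of these 6, only Ndufaf4 passed in each fit without 1 library. Ndufaf5 did not pass without WT replicate 4, Ndufaf2 without WT replicate 6 or KO replicate 4, and Ndufaf1, Ndufaf6 and Ndufaf7 without 3 to 5 of the libraries. Ndufaf4 had scaled heights of 3.25, 3.0 and 3.35 in WT and 2.55, 1.63 and 2.39 in KO, without overlap, and a log2 difference of -0.57 (SE 0.13, adjusted p = 0.0016). Ndufaf8 (chromosome 11, 120098934 to 120100424) was level, with 4.50, 4.89 and 4.90 in WT and 4.75, 4.88 and 4.83 in KO. It was the only member with a positive difference, 0.02 (adjusted p = 0.857). Centred on all genes, Ndufaf8 rose by 0.33 (SE 0.0722, adjusted p = 0.0113), Ndufa2 by 0.27 (adjusted p = 0.034) and Ndufs8 by 0.27 (adjusted p = 0.0356). These were the 3 members called higher in that fit. Ndufaf8 did not pass without WT replicate 2 or 4, Ndufa2 not without WT replicate 2, 4 or 6 or KO replicate 1, and Ndufs8 passed only without KO replicate 4. The 8 lower members of smallest p (Ndufb8, Cox6c, Ndufs6, Ndufc2, Ndufaf4, Ndufb9, Ndufs3 and Uqcrb) kept a negative difference when centred, and none passed the test.

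In Complex II, which is also an enzyme of the citric acid cycle, 2 of 4 subunits were lower (47.0% of all genes). Sdhd, a membrane anchor, had 4.61, 4.56 and 4.66 in WT and 3.90, 3.94 and 3.70 in KO, without overlap (log2 difference -0.26, adjusted p = 0.0177), but did not pass without WT replicate 4, WT replicate 6 or KO replicate 4 (adjusted p up to 0.0718). Sdha, the flavoprotein that oxidises succinate, had 3.68, 4.19 and 3.03 in WT and 3.05, 3.38 and 2.61 in KO, and these overlapped (-0.27, adjusted p = 0.0474). Sdha did not pass without WT replicate 2, WT replicate 4, KO replicate 1 or KO replicate 4 (adjusted p up to 0.32). Sdhb, the iron-sulfur subunit, had 3.86, 4.22 and 4.07 in WT and 3.45, 4.19 and 3.26 in KO, and did not pass (-0.16, adjusted p = 0.15). Sdhc, the other anchor, had 3.79, 3.67 and 3.72 in WT and 3.6, 3.19 and 3.35 in KO, and did not pass either (-0.14, adjusted p = 0.198).

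In Complex III, 4 of 8 members were lower, with a median difference of -0.24 (47.0% and -0.28 for all genes). Uqcrb, a subunit near the ubiquinone site, had scaled heights of 2.93, 2.74 and 3.07 in WT and 2.25, 1.875 and 2.04 in KO, without overlap (log2 difference -0.50, adjusted p = 0.00226). Uqcrfs1, the Rieske iron-sulfur protein, differed by -0.29 (adjusted p = 0.0212), Uqcrc2, a core protein, by -0.28 (adjusted p = 0.0186), and Uqcr11 by -0.31 (adjusted p = 0.0203). None of these 3 passed without WT replicate 4 or KO replicate 4, Uqcrc2 also not without WT replicate 2, Uqcr11 and Uqcrfs1 also not without WT replicate 6, and Uqcrfs1 also not without KO replicate 2. The core protein Uqcrc1 did not pass (-0.14, adjusted p = 0.246).

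In Complex IV, 12 of 18 members had a peak in all 6 libraries. Of these 12, 4 were lower in KO, beside 47.0% of all genes tested. Cox6c (chromosome 15, 35931976 to 35938246) had the largest difference of any member. Its scaled heights were 1.5, 1.89 and 1.86 in WT and 0.85, 1.06 and 1.09 in KO, without overlap, and the log2 difference was -0.81 (SE 0.173, adjusted p = 0.00112). Raw heights there were 42, 51 and 54 tags in WT and 17, 17 and 25 in KO, low among members. Cox7a1 differed by -0.50 (adjusted p = 0.0143), Cox5a by -0.31 (adjusted p = 0.0448) and Cox7a2 by -0.25 (adjusted p = 0.0363). None of these 3 passed without KO replicate 4 or WT replicate 6, Cox5a and Cox7a2 also not without WT replicate 4, Cox5a also not without KO replicate 1, Cox7a1 also not without WT replicate 2, and Cox7a2 also not without KO replicate 2. Cox4i1, Cox6a1, Cox6b1 and Cox8a, the isoforms used in most tissues, had differences of -0.22, -0.13, -0.15 and -0.20 and did not pass. Of the 3 members on chromosome X, Ndufa1 had 1.5, 1.56 and 1.45 in WT and 1.2, 1.31 and 1.26 in KO (adjusted p = 0.176) and Ndufb11 1.86, 2.22 and 2.03 and 1.75, 1.94 and 1.83 (adjusted p = 0.355). Cox7b, also on X, had 2.11, 1.70 and 1.93 in WT, 1.25 and 1.70 in KO replicates 1 and 4, and no peak in KO replicate 2, the shallowest library. Beside these values, the number of peaks on chromosome Y was 9, 8 and 9 in WT but 0 in all KO libraries. The part of this in the values on X, or on other chromosomes, was not tested.

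Member peaks had median lengths of 975, 992 and 971 bp in WT and 872, 767 and 899 bp in KO. Relative to the median length of each list, 1 of 71 members was shorter in KO (1.41%, against 3.37% of all genes) and none longer (0.0154% of all genes), by limma with adjustment over all genes. At an unadjusted p under 0.05, 9 of 71 members were shorter and 0 longer, against 2421 and 60 of all 13004 genes. Centred on all genes, 0 were shorter (1.46% of all genes) and 0 longer (0.0692%). In bp, every KO library lay below every WT library at 38 members (53.5%), against 44.6% of all genes. The 1 shorter member was Cox7a2l, which helps Complexes III and IV join into supercomplexes. Its peak spanned 1130, 1093 and 1146 bp in WT and 828, 754 and 767 bp in KO, a log2 difference of -0.41 (SE 0.078, adjusted p = 0.0491). Leaving out any 1 library raised its adjusted p to between 0.0576 and 0.159. Its scaled height overlapped between the genotypes, at 3.07, 3.63 and 3.14 in WT and 3.20, 3.13 and 2.78 in KO.

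Peaks of all lists that overlapped by at least 1 bp were merged into regions, and 108 regions lay at members. Of these, 80 (74.1%) were called in all 6 libraries, against 48.7% of 42738 regions at all genes. A region called in all 3 WT and no KO libraries was found once (0.926%, against 4.32% of all regions), and the reverse pattern was not found (0.0164% of all regions). The 1 WT-only region lay within 1 kb past the end of Ndufaf8, at chr11:120101105-120101319, with raw heights of 33, 38 and 32 tags in WT and a mean percentile of 26.5. It was thus a weak peak beside the promoter peak of 126 to 142 tags. With 3 libraries against 3, an exact permutation test cannot go below 0.1, so presence was not tested. Leaving out KO replicate 4 gave 4 such regions and leaving out WT replicate 2 gave 2. With fewer libraries this pattern is easier to meet. The share of all regions in those settings is not given here, so these counts have no background.

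Other genes of the pathway, from 3 lists, were all open. Over all genes tested 47.0% were lower, with a median log2 difference of -0.28. Without WT replicate 4 the share of all genes was 18.6%, and without WT replicate 6 it was 31.5%. Centred on all genes, 0.977% of all genes were lower and 5.42% higher. Of 17 genes of Complex V, the ATP synthase, 9 were lower in KO and 0 higher, with a median log2 difference of -0.25, and 3 were lower without WT replicate 4. Centred on all genes, 0 were lower and 2 higher, Atp5d (0.28, adjusted p = 0.0296) and Atp5g1 (0.24, adjusted p = 0.0376). Of 20 electron carriers and other genes of Complexes II to IV, such as Cycs (cytochrome c) and Cyc1 (cytochrome c1), 11 were lower and 0 higher, with a median of -0.29, and 2 were lower without WT replicate 4 and 7 without WT replicate 6. Centred, 1 was higher, Sdhaf1, an assembly factor of Complex II (0.34, adjusted p = 0.0234). Of 14 regulators of mitochondrial biogenesis, 7 were lower and 0 higher, with a median of -0.21. Nrf1 had scaled heights of 3.68, 3.96 and 3.66 in WT and 2.80, 2.5 and 2.87 in KO (log2 difference -0.47, adjusted p = 0.0012), and Ppargc1a, the gene of the coactivator PGC-1 alpha, differed by -0.65 (adjusted p = 0.00473), and both passed in each fit without 1 library. Centred on all genes, 0 regulators were lower, and the differences were -0.16 for Nrf1 (adjusted p = 0.288) and -0.34 for Ppargc1a (adjusted p = 0.21). Esrra, the gene of ERR alpha, had 4.18, 4.96 and 4.41 in WT and 4.65, 4.69 and 4.78 in KO. It was higher when centred (0.37, adjusted p = 0.00818), as was Tfb1m (0.31, adjusted p = 0.0142). Without WT replicate 2 or WT replicate 4 none of these 5 genes was higher when centred, Atp5d, Atp5g1, Sdhaf1 and Tfb1m were also not without KO replicate 1, Atp5d and Atp5g1 also not without WT replicate 6, and Atp5d also not without KO replicate 4. Gabpa and the Complex V gene Atp5j share a promoter peak, so both have 1 set of values and a difference of -0.25.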

How the data were processed

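The 6 ATAC-seq libraries were grouped by the genotype in the labels. Per the file headers, the authors called peaks separately for each library (MACS 2.1.1.20160309), without a control, at a q-value of 0.05, with tags shifted by -100 bp, extended to 200 bp and 1 tag kept per position. The submitters' processing notes name mm10, Bowtie2 2.3.1 and Picard 1.88. As deposited, pileup is summit coverage (a signal), not scaled to depth. The deposited −log10 p-values and −log10 q-values ranked peaks within a list and set the stricter threshold (5). The deposited fold ratio was not used. Deeper lists can call weaker sites.

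Gene spans, start sites and sequences came from RefSeq tables of GRCm38.p6. Log2 scaled heights and lengths were tested with limma 3.58.1 (R 4.3.3, trend, two-sided, adjusted p threshold 0.05) without covariates. The steps were tested on simulated data. The text names the core and Complex II genes, isoform groups, closed members, members on X, group-only regions, the 8 called members of lowest p, and the 5 tallest, lowest and most peak-rich members; other genes named (Cox5a, Uqcrfs1, Uqcrc1, Uqcrc2, Uqcr11, Ndufa8, Ndufa9, the other assembly factors, pathway, motif and shared-promoter examples) were chosen after their values were seen. Some items that this rule covers are not reported here. Members, lists and this rule were chosen with earlier results of these data known. Alternatives changed scaling, threshold, list length, gene window, peak overlap, variance trend, chromosomes and libraries. Python 3.11.15, NumPy 2.4.6, pandas 2.3.3 and Matplotlib 3.10.9 did the rest.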

Additional observations from a re-analysis of the deposited data

How the results depend on the processing

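The number of members lower in KO by height was 31, beside 47.0% of all genes. It was 0 when heights were centred on all genes (0.977% of all genes) and on equal-length lists (0.0159%). It was also 0 when heights were scaled to regions called in all 6 libraries (0.754%) or to tags kept (0.00%). It was 50 at the stricter threshold, where 71.5% of all genes were lower, and ranged from 15 to 33 when 1 library was left out, where 18.6% to 48.9% of all genes were. Members higher by height numbered 0, beside 0.0154% of all genes. They numbered 3 when centred (5.42% of all genes) and 5 when scaled to regions called in all 6 libraries (7.05%). Centred and without 1 library (added after seeing the data), 0 to 2 members were lower and 0 to 4 higher by height. In those fits 0 members were shorter. Of all genes, 0.00769% to 1.37% were lower, 0.00769% to 7.11% higher and 0.269% to 1.85% shorter. Shorter members numbered 1 (3.37% of all genes), and 0 when centred (1.46%) and on equal-length lists (1.06%). They numbered 2 with gene ends only (4.40%) and at the stricter threshold (4.94%), and 0 to 1 without 1 library (1.24% to 4.28%). WT-only regions numbered 1, beside 4.32% of all regions at genes. They numbered 0 without the flank or on equal-length lists, and 1 to 4 without 1 library. For these settings the share of all regions is not given here. Members with a peak, 72.7 in WT and in KO, became 75 and 74.7 with 5 kb on either side, 71.3 and 71.0 with gene ends only, and 69.7 and 70.0 without chromosomes X and Y. They became 72.0 in WT on equal-length lists and 72.0 in KO at the stricter threshold. The cause was not tested, except that equal-length lists hold fewer peaks and leave-one-out fits fewer libraries.

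Some single log2 height differences changed sign. Centred on all genes they were 0.0449 for Sdha, 0.0499 for Sdhd, 0.0584 for Cox7a2, 0.0099 for Ndufa4l2, 0.274 for Ndufa2 and 0.273 for Ndufs8. In the same order they were 0.0859, 0.0909, 0.0994, 0.0509, 0.315 and 0.314 on equal-length lists, with 0.00167 for Ndufs1. Scaled to regions called in all 6 libraries they were 0.0812, 0.0863, 0.0948, 0.0463, 0.310 and 0.309. Scaled to tags kept they were 0.104, 0.109, 0.117, 0.0687, 0.333 and 0.331, with 0.0194 for Ndufs1 and 0.0139 for Ndufv2. Ndufaf8 had -0.0698 at the stricter threshold. Without 1 library, Ndufa2 ranged from -0.112 to 0.0607 (positive without KO replicate 4), Ndufs8 from -0.0826 to 0.00724 (positive without KO replicate 4) and Ndufaf8 from -0.0226 to 0.0384 (negative without WT replicate 2).

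The genotypes share the replicate numbers 2 and 4 only, and same-numbered libraries did not deviate together (r = -0.0371 and -0.0205 over genes). With 3 libraries per genotype this cannot exclude that the numbers pair them. With the replicate number as a block, 23 members were lower by height (33.3% of all genes). In those 4 libraries without the block 24 were lower (34.8% of all genes). Members shorter numbered 0 in both, beside 0.00% and 1.10% of all genes. Where a list holds no peak, none passed the threshold at that depth; the chromatin may still be open.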
